A study of Mus musculus with 240 samples.

Results

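Wild-type oligodendrocyte precursor cells (OPCs) of the mouse brain were compared between 90 and 12 days after the start of tamoxifen (dpi). All bulk libraries labelled wild-type at these times were taken: 5 animals at 90 dpi and 5 at 12 dpi, with 1 library each, of 37 bulk animals in the series. The cells carried the tdTomato label per the sample titles, and were collected by laser capture from 10 µm sections. The series, 240 libraries in all, is on the steps that precede glioma in cells that have lost Trp53 and Nf1, and here only its wild-type cells are compared over time. The wild-type group at 12 dpi held 3 males and 2 females, and that at 90 dpi held 2 males and 3 females. The animals are called A to E at 12 dpi and F to J at 90 dpi, in rising order of the animal numbers in the titles, and values are given in that order. Both groups had received tamoxifen, as had the 6 wild-type animals at 150 dpi, used here for the spread between animals, and the 14 Trp53-/- Nf1-/- animals (CKO, 7 at each time), used for a test of genotype by time. The Cre driver, the age of the mice, the brain region, the hour of collection and the number of cells per library are not given in the sources used here. Nothing says how the animals were housed or handled in common, so p-values measure the spread between these animals.

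OPCs are the cells of the central nervous system that divide throughout life and give rise to myelinating oligodendrocytes. They are recognised by the growth factor receptor Pdgfra and the proteoglycan Cspg4 (NG2), and they keep the lineage factors Olig2 and Sox10 as they differentiate. On leaving the precursor state they pass through a committed stage marked by Bcas1 and Enpp6 and then switch on the myelin genes, such as Mbp, Cnp and Mag.

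Myelin genes, genes of immature neural cells and transcripts of the mitochondrial genome had lower levels at 90 than at 12 dpi. With near-identical copies added, the mitochondrial share of counts in 1 of the 90 dpi libraries was 3.15%, inside the 12 dpi range of 2.93 to 4.57%. Other lists also had negative median log2 differences, among them proliferation (−0.73), microglial (−0.45) and ribosomal protein genes (−0.38). The median difference of the OPC genes was 0.08 on the log2 scale. Of 18 glucocorticoid and clock genes, 2 (Cry2 and Tef) were higher in 4 of the 5 libraries at 90 dpi than in every 12 dpi animal. Of all genes 3.72% were higher in those 4 libraries, and 0 of the 18 were higher in all 5. None of these differences passed the main test. In edgeR's quasi-likelihood fit of all 16 wild-type animals, 0 of 14177 genes had an adjusted p under 0.05. The lowest adjusted p was 0.0851 (Gm9844, a near-identical copy of the thymosin gene Tmsb10, with 3.15 to 11.0 CPM at 12 dpi and 0 to 0.892 at 90 dpi, CPM being counts scaled to a common library total). At an unadjusted p under 0.05 there were 545 higher genes, which is 3.84% of those tested, and 591 lower genes, 4.17%. Without the shallow library described next, the same fit also called 0 of 14906 genes, with 1347 at an unadjusted p under 0.05.

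The number of calls differed between sets of animals and between tools. With the 10 compared animals alone, edgeR called 80 genes higher (0.563% of 14200) and 215 lower (1.51%). The common biological coefficient of variation was 0.227 there, against 0.301 with the 6 animals of 150 dpi. Leaving the shallow library out of that fit gave 180 higher (1.22%) and 286 lower genes (1.94%), and 287 genes were called with and without it. On all 16 animals DESeq2 called 7 genes higher (0.0494%) and 23 lower (0.162%), and limma voom with sample quality weights called 120 higher (0.846%) and 153 lower (1.08%). The fit of all 37 bulk animals called 0 higher and 1 lower (0.00612%). Values below are therefore given as levels, and a gene called in the 10-animal fit is named as such.

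Total counts were 3040543 to 10664079 per library at 12 dpi and 12028216 to 19310929 in 4 of the libraries at 90 dpi. The library of animal F at 90 dpi, called the shallow library, held 93644 counts, so that 1 count in it stood for 9.48 CPM (counts scaled to a common library total, after TMM). With all libraries reduced to its depth it gave 10669 detected genes, within the 10613 to 10960 genes of the 12 dpi animals. Across 2408 genes with a mean of at least 100 CPM in the 4 deep 90 dpi libraries, its log2(CPM + 1) levels had a Pearson correlation of 0.772 with the mean of the other animals of its group, against 0.948 to 0.962 for the deep libraries. Genes are not independent replicates. Apart from animal F, depth did not overlap between the times, so depth and time cannot be told apart. Fewer cells of a type and less RNA per cell cannot be told apart in bulk libraries either. Counts of Y-linked genes matched the labelled sex in 10 of 10 animals.

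The OPC label was checked against markers. Pdgfra, Cspg4, Olig1, Olig2, Sox10, Ptprz1, Vcan, Gpr17 and Lhfpl3 were above 0 in all 10 animals, and C1ql1 was at 0 in 1. Markers of other cells were present as well. Levels were divided by the median length of each gene's coding transcripts. Whether counts scale with that length in these amplified libraries was not tested, so the scale is a rough one between genes. On it, the median level over the 10 animals was 105.5 CPM per kb for Pdgfra and 26.9 for Olig2. It was 2305 for the neuronal gene Snap25 and 194.8 for Gad2 of inhibitory neurons (named after its values were seen). For Slc1a2 of astrocytes it was 984.2, and for Cnp of oligodendrocytes 79.1. Among the other OPC markers, Vcan was at 191.1, Ptprz1 at 143.3, Olig1 at 67.2, Gpr17 at 64.6 and Lhfpl3 at 52.95 CPM per kb. C1ql1 was at 15.9, Sox10 at 13.3 and Cspg4 at 11.1. Markers of 1 cell type differed widely, from 21.1 (Slc17a7) to 2305 in neurons and from 2.22 (Aldh1l1) to 984.2 in astrocytes. Those of oligodendrocytes lay between 3.685 (Opalin) and 516.4 (Mobp). The 5 microglial markers lay between 4.41 (Cx3cr1) and 14.6 (Csf1r), and the 4 endothelial ones between 1.77 (Kdr) and 14.0 (Flt1). Some of them were thus at the level of the lowest OPC markers, Sox10 and Cspg4, and all were below Pdgfra and Olig2. Fibroblast Dcn was at 5.29, and haemoglobin Hba-a1 was at 0 in 7 of 10 animals. The captured material thus held RNA of neurons, astrocytes, microglia and endothelial cells beside that of OPCs. Where a marker list moved with time, its values are given below, and its part in the other results was not tested.

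No OPC identity gene was called in the 16-animal or the 10-animal fit. In the order of animals A, B, C, D and E, Pdgfra had 277, 293, 190, 319 and 273 CPM at 12 dpi. In the order of animals F, G, H, I and J, it had 208, 314, 336, 365 and 328 CPM at 90 dpi. The groups overlapped, and the log2 difference was 0.26 ± 0.22 (SE), adjusted p = 0.812. Olig2, a lineage transcription factor, had 65.6, 93.6, 48.5, 62.1 and 60.4 CPM at 12 dpi and 47.4, 70.4, 73.4, 73.4 and 78.6 at 90 dpi, with a log2 difference of 0.15 ± 0.17. Sox10, which acts at every stage of the lineage, had 24.0 to 50.4 CPM at 12 dpi and 28.8 to 38.1 at 90 dpi (−0.12 ± 0.25). Cspg4 (0.21 ± 0.21), Vcan, a matrix proteoglycan of OPCs (0.05 ± 0.18), Neu4, a sialidase (0.37 ± 0.21), and Pcdh15, a cadherin (0.33 ± 0.22), also had overlapping groups. Of 16 OPC identity genes, 12 were higher and 4 lower at 90 dpi, with a median log2 difference of 0.08. Over all genes tested the median was −0.005 and 49.2% were higher. In females only (2 animals at 12 dpi and 3 at 90 dpi, with the females of 150 dpi kept in the fit) 7 of the 16 were higher with a median of −0.022, and in males only (3 and 2 animals, likewise) 12 were, with a median of 0.14. A difference between the sexes was not tested, here or for the lists below. The sum of the 16 levels was 3300 to 4849 CPM at 12 dpi and 3858 to 4630 at 90 dpi.

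Every one of 19 myelin genes was lower at 90 dpi in the 16-animal fit (18 of 19 in the 10-animal fit without animal F), against 50.8% of all genes, and their median log2 difference was −0.68. The median was −0.37 in females only, with 15 of 18 tested genes lower, and −0.88 in males only, with 19 of 19 lower. Cnp, a phosphodiesterase of oligodendrocytes (chr11:100574904-100591729, GRCm38), had 229, 223, 216, 214 and 252 CPM at 12 dpi and 85.3, 143, 158, 129 and 137 at 90 dpi. Each animal at 90 dpi was below each at 12 dpi, the shallow library included (−0.76 ± 0.19, adjusted p = 0.372 in the 16-animal fit and 0.00748 in the 10-animal fit). Mag, an adhesion protein of the inner myelin wrap (chr7:30899176-30914873), had 61.3, 34.5, 43.9, 30.9 and 61.4 CPM at 12 dpi and 19.0, 25.4, 19.8, 22.8 and 19.4 CPM at 90 dpi, again without overlap (−1.08 ± 0.28, adjusted p = 0.372 and 0.0181 in the same fits). In the library of animal F the Mag value rests on 2 counts.

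Myelin basic protein, Mbp, had 1351, 1116, 531, 570 and 637 CPM at 12 dpi and 398, 453, 508, 394 and 424 at 90 dpi. The groups did not overlap, but 2 of the 12 dpi animals, A and B, stood above the other 3, and Mbp was not called in the 10-animal fit (adjusted p = 0.0639). The same pair was high for Mobp, with 594 and 566 CPM against 244 to 353 in the other 12 dpi animals and 201 to 265 at 90 dpi. Mog, a late myelin gene, overlapped between the times, with 13.8 to 36.6 and 14.3 to 19.0 CPM. Cldn11, the claudin of myelin sheaths, and Ugt8a, which makes the myelin lipid galactosylceramide, were called lower in the 10-animal fit (adjusted p = 0.0218 and 0.0183). They fall outside the rule for named genes and were picked after their values were seen. Cldn11 overlapped between the times, with 88.3 to 364 CPM at 12 dpi and 42.8 to 72.0 in the deep 90 dpi libraries. In animal F it was at 171 CPM, from 18 counts. In the 10-animal fit 5 of the 19 myelin genes were called lower and 0 higher, against 1.51% and 0.563% of all genes. In all, 7 of 19 had non-overlapping lower groups, where 1.95% of all genes did and 1.32% were higher without overlap. The summed level of the list was 2989 to 5378 CPM at 12 dpi and 1963 to 2350 at 90 dpi.

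**Figure D1:**
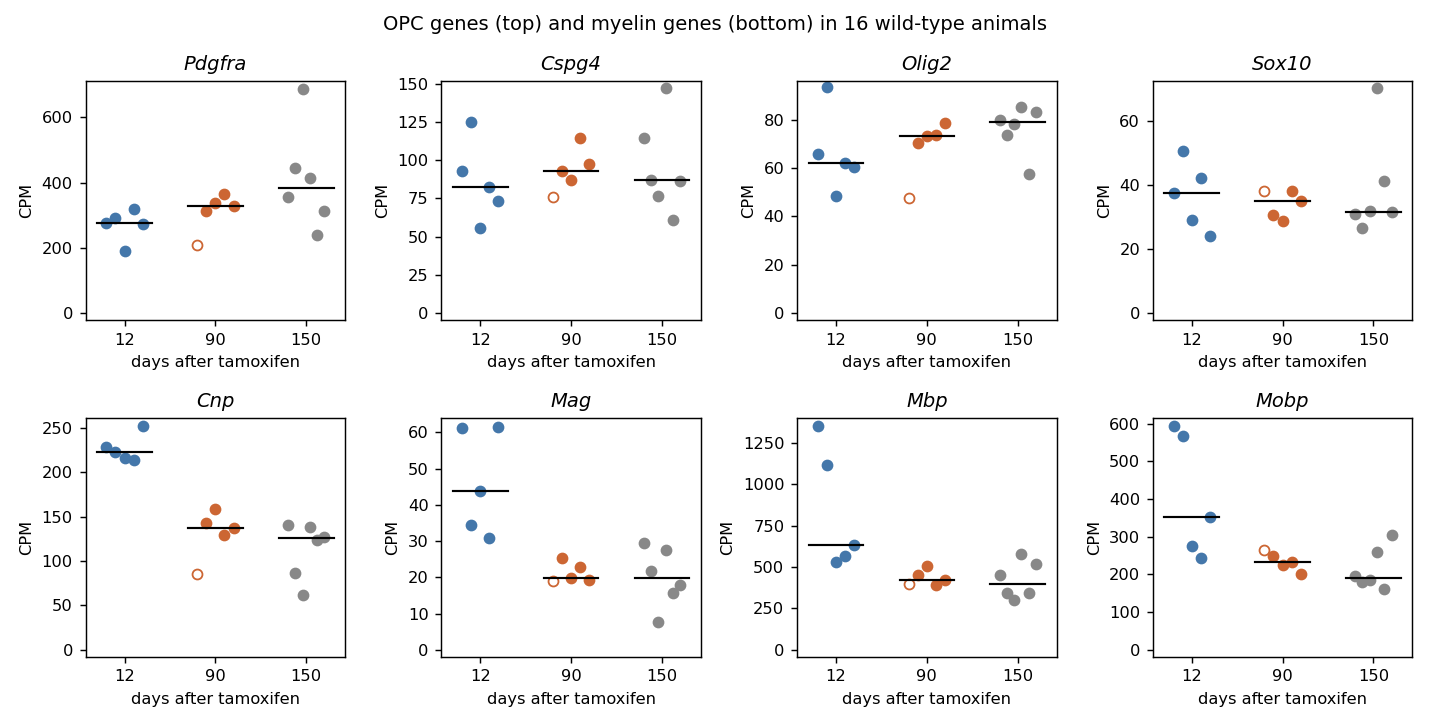
CPM (vertical axes, linear) of 4 OPC genes in the top row and 4 myelin genes in the bottom row, by days after tamoxifen. Each point is 1 wild-type animal, the open point is animal F and the line is the group median. The OPC genes overlap between 12 and 90 dpi, whereas all 5 animals at 90 dpi lie below all 5 at 12 dpi for Cnp, Mag and Mbp. For Mobp the groups overlap.

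Of 14 genes of the committed stage, 12 were lower (median log2 difference −0.39). Against 1.51% of all genes, 2 of the 14 were called lower in the 10-animal fit. One was Nfasc, a cell adhesion protein of axons and early oligodendrocytes. It had 388, 333, 262, 258 and 345 CPM at 12 dpi and 180, 165, 183, 248 and 222 at 90 dpi, without overlap (−0.63 ± 0.18, adjusted p = 0.0255 in the 10-animal fit). The other was Tcf7l2, a Wnt effector of newly formed oligodendrocytes, with 30.3 to 45.5 CPM and then 9.48 to 32.0, which overlapped (−0.76 ± 0.22, adjusted p = 0.034). Enpp6, a marker of newly formed oligodendrocytes, had 63.2 to 108 CPM at 12 dpi and 36.2 to 81.0 CPM at 90 dpi, and Bcas1 had 98.6 to 197 and 56.9 to 134 CPM. Both overlapped. At 150 dpi, Enpp6 was at 13.1 to 37.8 CPM. Sirt2, a deacetylase abundant in the lineage, had a log2 difference of −0.50 ± 0.22, and Itpr2, a calcium release channel, 0.08 ± 0.15.

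All 18 genes of immature neural and glial cells were lower at 90 dpi (median −0.52), and 7 were called lower in the 10-animal fit, 8 without animal F. Of all genes, 1.51% were called lower in that fit and 1.94% without animal F. Dpysl3, a regulator of growth cones, had 136, 180, 200, 153 and 185 CPM at 12 dpi and 114, 129, 112, 124 and 103 at 90 dpi (−0.53 ± 0.15, adjusted p = 0.392 in the 16-animal fit and 0.0341 in the 10-animal fit). No 90 dpi value reached the 12 dpi range. Such lower groups were found for 4 of the 18 genes and for 1.95% of all genes. Igfbpl1 had 13.5 to 25.9 CPM at 12 dpi and 7.58 to 11.6 in the 4 deep libraries at 90 dpi, with 0 counts in animal F. Gap43, a growth cone protein, had a log2 difference of −0.66 ± 0.22 and Sox11, a factor of immature neurons, −0.59 ± 0.24. Gap43 was called in the 10-animal fit (adjusted p = 0.029) and Sox11 was not. Sox4, also called there (−0.62 ± 0.32, adjusted p = 0.0341), Marcksl1 (−0.36 ± 0.16) and Dcx, the marker of migrating neuroblasts (−0.33 ± 0.27), had overlapping groups. Tubb2b, a tubulin of immature neurons named after its values were seen, had 217 to 444 CPM and then 152 to 184 (adjusted p = 0.0128 in the 10-animal fit). Tuba1a had 1361 to 2041 CPM and then 1178 to 1346 (adjusted p = 0.0368 in the 10-animal fit). Tuba1c, another tubulin, overlapped, with 14.3 to 21.4 and 0 to 27.4 CPM (0.20 ± 0.61). Tubulin genes have near-identical copies that can share reads. Summed with its 9 copies, which include the tubulin genes Tuba1b and Tuba1c, Tuba1a overlapped between the times. Tubb2b overlapped as well when its 2 copies, 1 of them the gene Tubb2a, were added. That sum was 709.9 to 1469 CPM at 12 dpi, 796.2 in animal F and 511.8 to 590.0 in the deep 90 dpi libraries. These sums cannot tell shared reads from the levels of the other tubulin genes.

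Cell division genes were few and uneven. Of 20 proliferation genes, 14 were tested, 10 lower and 4 higher, with a median log2 difference of −0.73. The median was −1.22 in females only, with 9 of 11 tested genes lower, and −0.27 in males only, with 11 of 19 lower. Mki67, a protein of dividing nuclei, had 11.8, 21.4, 17.7, 8.30 and 29.1 CPM at 12 dpi and 0, 0.898, 7.88, 9.61 and 11.6 CPM at 90 dpi. The groups overlapped (−1.36 ± 0.61, adjusted p = 0.591), and the value of 0 in animal F comes from a library where 3 counts make 28.4 CPM. Top2a, the topoisomerase of mitotic chromosomes, had 3.44 to 13.4 CPM and then 0.571 to 9.48 (−1.21 ± 0.59). The S and G2 cyclin Ccna2 had a log2 difference of −1.32 ± 0.37 and was called in the 10-animal fit only when animal F was left out (adjusted p = 0.0486). It overlaps Exosc9, and their summed levels overlapped between the times. Cdk1, the mitotic kinase, was near the limit of detection, with 0.859 to 2.19 CPM and then 0 to 3.35 (0.16 ± 0.74). Cdk6, a G1 kinase, had 10.8 to 18.7 CPM and then 3.35 to 9.66, without overlap (−1.09 ± 0.47, adjusted p = 0.561). None of these genes was called in the 16-animal fit. The summed proliferation level was 62.1 to 119 CPM at 12 dpi and 33.7 to 70.6 CPM at 90 dpi.

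Growth signalling genes differed in direction. Etv5, a transcription factor induced by MAPK signalling, had 79.9, 65.1, 74.0, 65.0 and 64.4 CPM at 12 dpi and 142, 127, 128, 106 and 76.6 at 90 dpi (0.64 ± 0.18, adjusted p = 0.0392 in the 10-animal fit). It was the 1 of 14 MAPK output genes called there, and 7 of the 14 were higher. Of all genes, 0.563% were called higher in that fit. Dusp5, a phosphatase that acts on ERK, had 8.76 to 18.5 CPM and then 21.7 to 28.4, without overlap (0.75 ± 0.24, adjusted p = 0.0639 in the 10-animal fit). The receptor Egfr (−0.69 ± 0.24) and the MAPK inhibitors Spry4 (0.42 ± 0.19) and Dusp6 (−0.10 ± 0.26) were not called in either fit. Grb10, an imprinted adaptor that restrains growth factor signalling, had 35.0 to 50.4 CPM at 12 dpi and 52.1 to 65.4 in the 4 deep libraries at 90 dpi, with 37.9 in animal F (0.56 ± 0.17, adjusted p = 0.0401 in the 10-animal fit). Mycn, a growth-promoting transcription factor, had 85.7, 39.5, 96.0, 83.3 and 72.0 CPM and then 66.3, 32.7, 30.8, 30.6 and 40.0 CPM (−1.07 ± 0.45, adjusted p = 0.0191). The imprinted genes Peg3 (0.08 ± 0.19) and Igf2, a growth factor (−0.50 ± 0.33), overlapped. Of the 11 tested genes on the imprinted and oncofetal list, 4 were higher and 7 lower. Of the 21 guidance and adhesion genes 10 were higher, and Sema3a (−0.59 ± 0.28) and Robo2 (−0.53 ± 0.26) were called lower in the 10-animal fit. Without animal F both had non-overlapping lower groups, as had 3.53% of all genes, while 3.72% were higher without overlap.

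**Figure D2:**
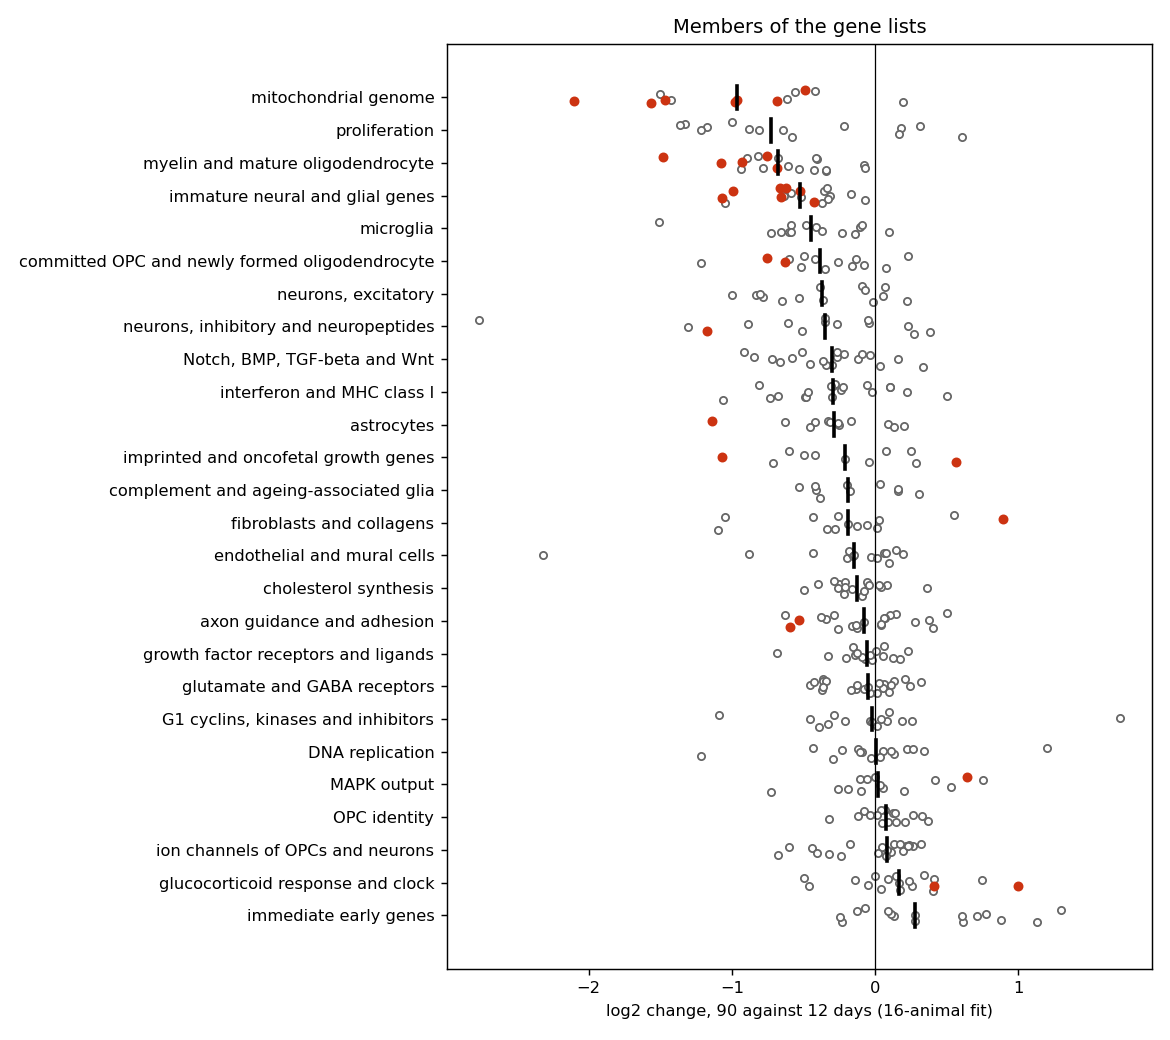
Log2 difference between 90 and 12 dpi (horizontal axis, 16-animal fit) of each tested member of the gene lists with 10 or more tested members, without the ribosomal and oxidative phosphorylation lists. Each point is 1 gene, filled red where the 10-animal fit gave an adjusted p under 0.05, and the black bar is the list median. All myelin and all immature neural genes lie left of 0, and the OPC identity genes are centred at 0.08.

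Of 18 glucocorticoid and clock genes 14 were higher at 90 dpi, with a median log2 difference of 0.17. In females only 9 were higher and 9 lower (median 0.039), and in males only 16 were higher (median 0.335). None of the 18 had groups without overlap when animal F was included. Per1 and Per2 are the period genes of the circadian feedback loop, Cry2 is their partner repressor and Tef is a transcription factor of the clock output. All are targets of the CLOCK and BMAL1 activators, which bind the E-box. The 13 clock genes searched were chosen after their values were seen. The 250 bases before each start were searched for CACGTG, which reads the same on both strands. Of 12 clock genes with a promoter in the RefSeq table (GRCm38.p6), 5 had it in at least 1 promoter, namely Per1, Tef, Cry1, Bhlhe41 and Ciart. Counted over promoters and not genes, 6.02% of all 32851 held it. Cry1 (0.405 ± 0.21), Bhlhe41 (0.26 ± 0.20) and Ciart (0.17 ± 0.37) were not called in the 10-animal fit with or without animal F, and Cry2 had a promoter without the motif. A match describes the letters only. The sites of Per1 and Tef are printed to show the motif in genes whose levels follow, of which Per1 was called in neither fit and Tef only without animal F. The stretches of Per1 and of the pair of Tef starts follow, 5′ to 3′ on the gene's strand, with the E-box in capitals. They lie at chr11:69098763-69098808, chr15:81802526-81802571 and chr15:81811256-81811301, all on the plus strand.
Per1: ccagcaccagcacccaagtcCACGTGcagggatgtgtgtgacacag
Tef, upstream start: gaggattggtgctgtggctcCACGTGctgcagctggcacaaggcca
Tef, downstream start: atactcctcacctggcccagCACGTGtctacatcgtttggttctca

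Per2 (chr1:91415982-91459324) had 33.5, 16.7, 21.0, 20.6 and 21.3 CPM at 12 dpi and 19.0, 58.1, 57.0, 46.0 and 30.2 at 90 dpi. The value of animal F, from 2 counts, was inside the 12 dpi range, and 3 of the 4 deep libraries were above it. The log2 difference was 1.00 ± 0.27, adjusted p = 0.379 in the 16-animal fit and 0.0396 in the 10-animal fit. Cry2 had 121, 117, 134, 125 and 141 CPM at 12 dpi and 114, 182, 169, 166 and 196 CPM at 90 dpi, so that all 4 deep libraries at 90 dpi were higher (0.41 ± 0.17, adjusted p = 0.0464 in the 10-animal fit). Tef, whose promoters are printed above, had 120, 102, 96.3, 117 and 114 CPM and then 85.3, 160, 148, 144 and 165. It was called higher in the 10-animal fit only without animal F (adjusted p = 0.0219, against 0.0577 with it). Per1 had 38.2 to 109 CPM at 12 dpi and 56.9 to 143 CPM at 90 dpi (0.75 ± 0.26, adjusted p = 0.0926). Dbp, another output gene of the clock, had overlapping values of 10.4 to 32.8 and 19.2 to 28.8 CPM (0.04 ± 0.29). The glucocorticoid targets Fkbp5 (−0.05 ± 0.25) and Sgk1 (0.09 ± 0.23) overlapped too. The 10-animal fit called 2 of the 18 glucocorticoid and clock genes higher, 3 without animal F, against 0.563% and 1.22% of all genes. Without animal F, 2 of the 18 had higher groups without overlap, as had 3.72% of all genes. The hour of collection, on which clock genes depend, cannot be told apart from time here.

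Immediate early genes, which neurons and glia switch on within minutes of a stimulus, varied widely between animals of the same time. Nr4a3, a nuclear receptor of this class, had 17.7, 12.8, 188, 34.6 and 56.2 CPM at 12 dpi and 9.48, 234, 126, 161 and 109 at 90 dpi (1.30 ± 0.67, adjusted p = 0.648). Animal C at 12 dpi stood with the deep 90 dpi libraries, and animal F below all others. Fosl2, an AP-1 subunit, had 385 CPM in animal C and 47.6 to 138 in the other 12 dpi animals, against 142 in animal F and 231 to 464 in the deep 90 dpi libraries. Fosb differed by 0.88 ± 0.43. Fos and Egr1 had log2 differences of −0.24 ± 0.46 and 0.13 ± 0.33. Those of Npas4 and Arc, which neurons induce with activity, were −0.07 ± 0.45 and 0.28 ± 0.31. Of the 16 genes of this list 12 were higher, the median was 0.28 (0.305 in females only and 0.46 in males only), and none was called in the 10-animal fit.

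**Figure D3:**
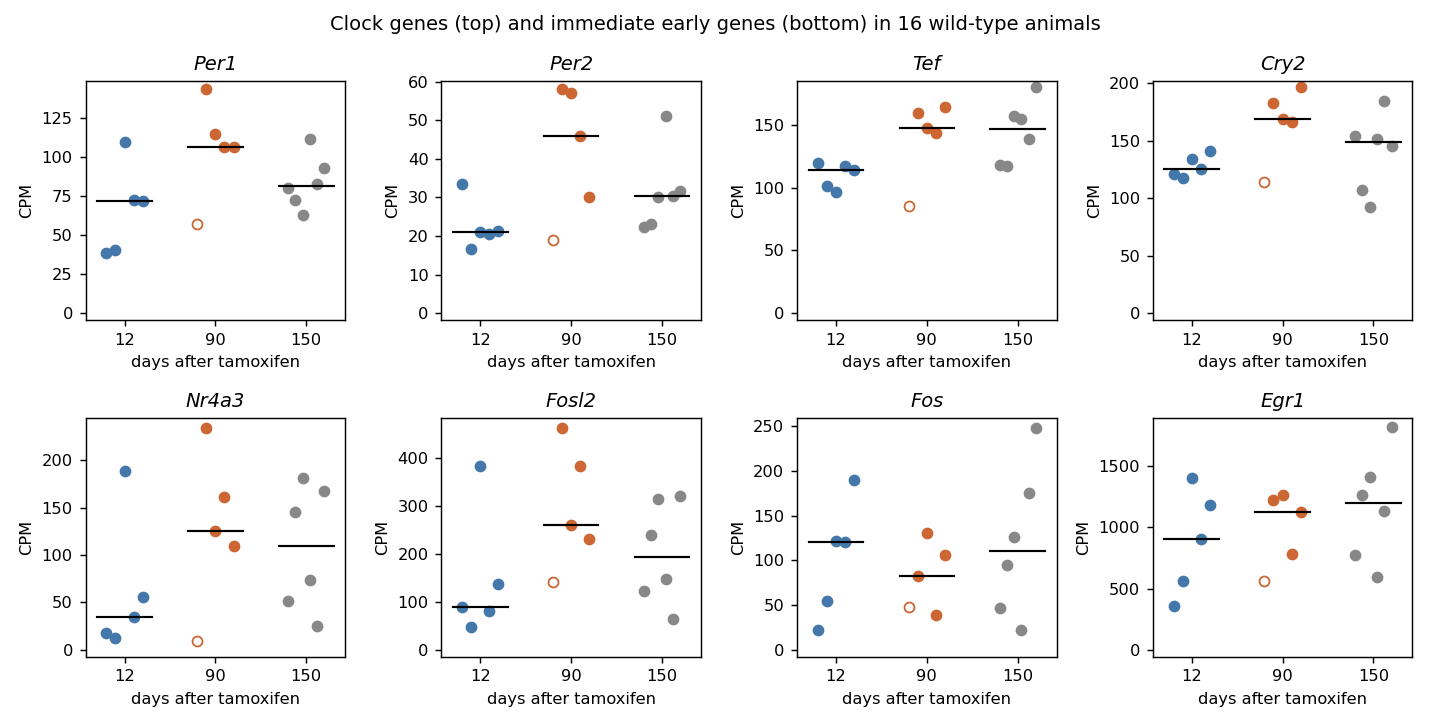
CPM (vertical axes, linear) of 4 clock genes in the top row and 4 immediate early genes in the bottom row, by days after tamoxifen, 1 point per wild-type animal, with animal F open and the group median as a line. For Tef and Cry2 the 4 deep 90 dpi libraries lie above all 12 dpi animals, and for Nr4a3 and Fosl2 animal C at 12 dpi lies among the 90 dpi animals.

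Transcripts of the mitochondrial genome form a list added after the data were seen. Of 13 protein genes 12 were lower, with a median log2 difference of −0.96 (−0.625 in females only and −1.14 in males only). Against 1.51% of all genes, 7 of the 13 were called lower in the 10-animal fit. Without animal F, 10 of the 13 were, against 1.94%. They took 2.65 to 4.30% of counts at 12 dpi and 1.76 to 2.45% at 90 dpi, without overlap, and 1.73 to 2.72% at 150 dpi. mt-Co3, a subunit of cytochrome oxidase, had 2455, 2006, 1751, 2115 and 1595 CPM at 12 dpi and 0, 844, 1032, 749 and 689 CPM at 90 dpi. The other oxidase subunit, mt-Co2, had 1954 to 3262 CPM and then 970 to 1165 in the deep libraries, and again 0 in animal F.

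Copies of these genes were high where the genes were at 0. In animal F, Gm28437, a near-identical copy of mt-Co3, was at 2057 CPM, while it was at most 0.254 CPM in the other 90 dpi animals and 67.3 CPM at 12 dpi. Summed over gene and copy, mt-Co3 was at 1595 to 2522 CPM at 12 dpi, 2057 in animal F and 689 to 1032 in the 4 deep 90 dpi libraries. mt-Co2 with its copies stayed without overlap, at 2603 to 3282 CPM and then 1432 to 2131. Its ratio of means over the deep libraries moved from 0.454 to 0.611 with the copies added. mt-Atp6 and mt-Nd3, named after their values were seen, had summed ratios of 0.592 and 0.380 over all 5 libraries at 90 dpi, and of 0.503 and 0.217 over the deep ones. Both sums overlapped between the times, since in animal F they were 2228 and 123.2 CPM, inside the 12 dpi ranges of 1980 to 2782 and 72.4 to 179.5 CPM. With copies, the share of the 13 genes was 2.93 to 4.57% at 12 dpi, 1.99 to 2.36% in the deep 90 dpi libraries and 3.15% in animal F. With copies, the share was lower in the deep libraries and not in the shallow one. At 150 dpi, where depth was 2316668 to 14781032 counts, the share without copies overlapped that at 12 dpi.

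Some short cytosolic transcripts also had lower levels. Tmsb10, an actin-binding thymosin (chr6:72957347-72958748), had 83.2, 65.6, 113, 81.6 and 107 CPM at 12 dpi and 56.9, 44.3, 45.0, 36.8 and 24.5 at 90 dpi. The groups did not overlap, and they did not with its 4 copies summed (−1.28 ± 0.24, adjusted p = 0.269 in the 16-animal fit and 0.00333 in the 10-animal fit). Of 78 tested ribosomal protein genes, a list added after the data were seen, 72 were lower (median −0.38). Against 1.51% of all genes, 11 of the ribosomal protein genes were called lower in the 10-animal fit. Their share of all counts overlapped, at 1.32 to 1.51% at 12 dpi and 1.03 to 1.44% at 90 dpi, and so did their summed level. In females only 28 were higher and 50 lower (median −0.079), and in males only 3 were higher and 75 lower (median −0.52). Rpl35a had 110 to 136 CPM and then 64.2 to 94.8 (−0.72 ± 0.15), but with its 16 copies the groups overlapped. Rps27rt had 151 to 268 CPM and then 46.8 to 142 (−1.74 ± 0.45), while Rps27, its near-identical copy, was at 111 to 167 CPM and then 104 to 302 CPM. Their sum with the other copies overlapped, at 319 to 380 and 221 to 381 CPM. Rps7 (−0.93 ± 0.25) and Eny2, a small subunit of the SAGA complex (−1.32 ± 0.31), stayed without overlap when copies were summed. With its 9 copies, Rps7 was at 166.6 to 208.2 CPM at 12 dpi and 113.7 to 165.2 at 90 dpi. Its ratio of means over the deep libraries moved from 0.557 to 0.775 with the copies, while that of Eny2 stayed at 0.409. Of 74 nuclear genes of oxidative phosphorylation, also added later, 63 were lower (median −0.315). Against 1.51% of all genes, 7 of the 74 were called lower in the 10-animal fit. Their summed level overlapped, at 8956 to 9794 CPM at 12 dpi and 7317 to 9620 at 90 dpi. The median was −0.065 in females only, with 41 of 73 lower, and −0.48 in males only, with 63 of 75 lower. Over protein-coding genes outside the mitochondrial genome, the median log2 difference was −0.095 for those with transcripts under 1 kb, of which 61.4% were lower, and 0.026 for those over 4 kb. The share of counts from these genes under 1 kb overlapped between the times, at 15.7 to 16.4% at 12 dpi and 14.9 to 16.1% at 90 dpi. At 90 dpi the 3 females had 15.8, 16.0 and 16.1%, and the 2 males 14.9% each. The parts of library depth, transcript length, sex and time were not tested.

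**Figure D4:**
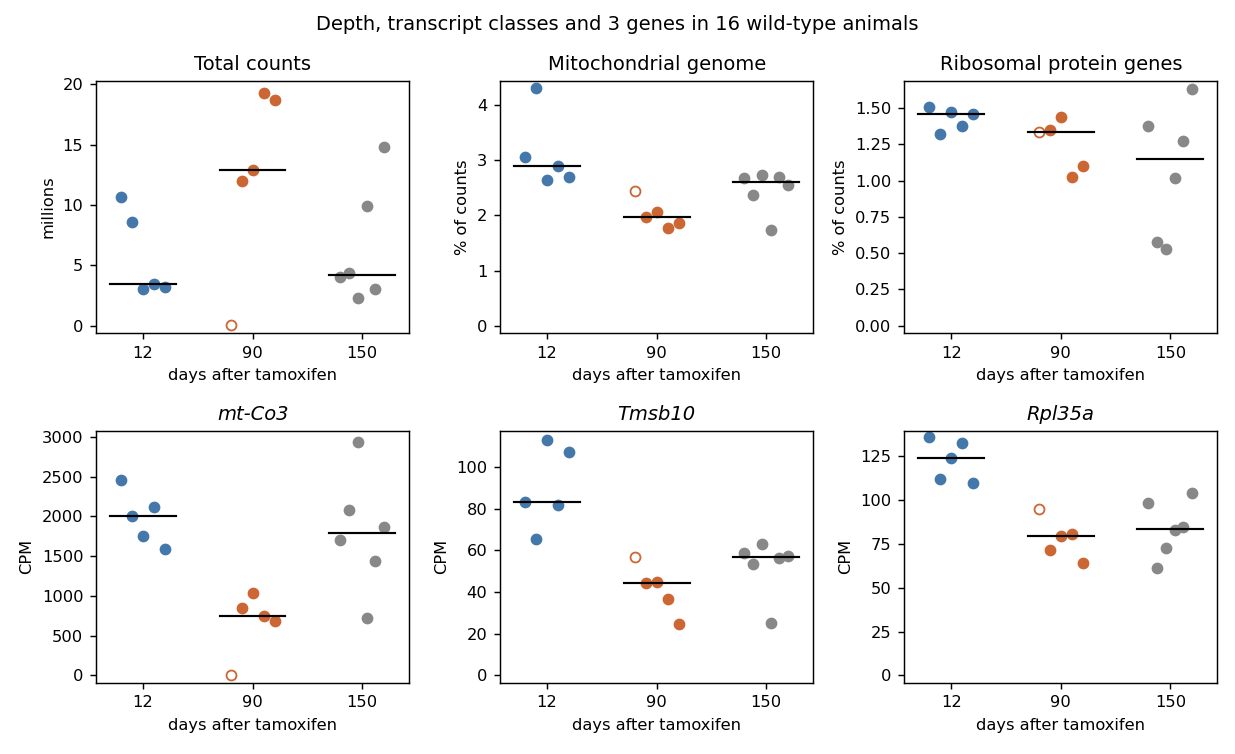
Total counts per library, the percentage of counts from the mitochondrial genome and from ribosomal protein genes, and CPM of mt-Co3, Tmsb10 and Rpl35a (vertical axes, linear) by days after tamoxifen, 1 point per wild-type animal, with animal F open and the group median as a line. The mitochondrial percentage, without near-identical copies, is 2.65 to 4.30 at 12 dpi and 1.76 to 2.45 at 90 dpi. The 90 dpi libraries other than animal F lie above all 12 dpi libraries in total counts.

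Among expressed genes whose 5 and 5 animals did not overlap, the 12 higher genes with the lowest p were Eml5, Gpr161, Gpld1, Msantd2, Polg, Setdb1, Dgcr8, Phtf1, Psme4, Snhg11, Pank1 and Zfp672. They were chosen for not overlapping, so the separation is no finding. Eml5, a microtubule-associated protein, had 364, 397, 377, 348 and 333 CPM at 12 dpi and 540, 497, 432, 537 and 608 at 90 dpi (0.56 ± 0.11, adjusted p = 0.285 in the 16-animal fit and 0.0103 in the 10-animal fit). Gpr161, a ciliary receptor that restrains hedgehog signalling, had 20.3 to 26.6 CPM and then 35.5 to 56.9 (0.74 ± 0.16), and was at 23.9 to 33.4 CPM at 150 dpi. Polg, the polymerase of the mitochondrial genome, had 41.8 to 62.8 CPM and then 71.8 to 85.3 (0.66 ± 0.15, adjusted p = 0.0117 in the 10-animal fit). Setdb1, a histone H3K9 methyltransferase (0.44 ± 0.11), Dgcr8, a microRNA processing factor (0.52 ± 0.13), and Psme4, a proteasome activator (0.49 ± 0.12), had smaller differences. Msantd2 (0.96 ± 0.20), Gpld1 (0.75 ± 0.16), Phtf1 (0.64 ± 0.16), Snhg11 (0.61 ± 0.17) and Pank1, a kinase of coenzyme A synthesis (0.60 ± 0.16), were also called in the 10-animal fit. Zfp672 was not (adjusted p = 0.0572).

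The lower genes chosen the same way included Tmsb10, Rpl35a, mt-Co2, mt-Co3, Eny2, Rps7, Atpif1, Rps27rt, Stmn4, Fbxl16 and Cnp. Atpif1, the inhibitor of mitochondrial ATP synthase, had a log2 difference of −0.82 ± 0.19 (adjusted p = 0.00588 in the 10-animal fit). Stmn4, a neural stathmin, differed by −0.78 ± 0.21 and Fbxl16, an F-box protein, by −0.52 ± 0.14. Eno1b was the 1 gene called lower in the 37-animal fit. It had 93.3 CPM in animal A, 1.04 in animal B and 0 in the other 8 animals, and 30.6 to 123 CPM at 150 dpi. Summed with Eno1 and its other copies it had 319.7 to 424.2 CPM at 12 dpi and 284.3 to 392.4 at 90 dpi, a ratio of means of 0.990. Ptgds, a prostaglandin synthase, had 233 to 356 CPM and then 99.0 to 294 (−0.89 ± 0.37, adjusted p = 0.0229 in the 10-animal fit). The genes deleted in the CKO animals had overlapping levels, with log2 differences of −0.01 ± 0.12 for Nf1 and −0.31 ± 0.26 for Trp53.

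Markers of other cells moved in part with time. Summed excitatory neuron markers were 6351 to 7223 CPM at 12 dpi and 5743 to 7233 at 90 dpi, and 11 of 14 tested were lower (median −0.37). Snap25, a synaptic protein of all neurons, differed by 0.06 ± 0.12, the neuronal nuclear protein Rbfox3 by −0.09 ± 0.13, Camk2a of excitatory neurons by −0.01 ± 0.14, and Gad1 and Gad2, which make GABA, by −0.04 ± 0.15 and 0.23 ± 0.20, whereas Slc17a7, the vesicular glutamate transporter of cortical neurons, had 42.4 to 86.2 CPM and then 19.0 to 58.2 (−0.83 ± 0.32). Nrgn, a postsynaptic protein of forebrain neurons, differed by −0.53 ± 0.19. Among inhibitory and neuropeptide genes, Cck was called lower in the 10-animal fit, with 30.5 to 78.0 CPM and then 0 to 32.1 CPM. Sst, with 34.6 CPM in animal D and 1.14 to 8.503 CPM in the other 12 dpi animals, was not, nor was the opioid precursor Penk (−0.27 ± 0.17). Of 12 astrocyte genes 9 were lower (median −0.29) and Gja1, a gap junction protein, was called lower in the 10-animal fit, with 110 to 286 CPM and then 76.3 to 152. The water channel Aqp4 (−0.32 ± 0.16), the filament protein Gfap (−0.42 ± 0.26), Aldh1l1 (−0.46 ± 0.30) and the glutamate transporter Slc1a2 (−0.17 ± 0.16) were not. Summed astrocyte markers were 3690 to 4967 and 3278 to 4021 CPM.

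Of 14 microglial genes 13 were lower (median −0.45) and none was called in the 10-animal fit. In females only 9 of the 14 were lower (median −0.08), and in males only 14 were (median −0.68). Their sum was 247.5 to 313.9 CPM at 12 dpi and 175.7 to 241.9 CPM at 90 dpi, without overlap. Cx3cr1, the fractalkine receptor, had 18.5 to 23.5 CPM and then 11.6 to 14.6 in the deep libraries (−0.72 ± 0.26). Itgam (−0.60 ± 0.22), Ctss (−0.66 ± 0.26), P2ry12 (−0.37 ± 0.26) and C1qa (−0.59 ± 0.35) had overlapping groups. Endothelial and mural markers summed to 515.6 to 1238 and 701.7 to 1135 CPM, with Cldn5 at −0.88 ± 0.45, the VEGF receptor Flt1 at −0.15 ± 0.23 and the pericyte gene Rgs5 at 0.06 ± 0.22. Of these 15 genes 9 were lower, and none was called in the 10-animal fit. Of the fibroblast and collagen genes, Col6a1 was called higher in the 10-animal fit (0.89 ± 0.31, adjusted p = 0.0344), and 9 of 13 were lower. Dcn (−0.26 ± 0.65) and Col1a2 (−0.28 ± 0.53), which mark fibroblasts, overlapped. The part of these cells in the myelin and immature neural results was not tested.

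Among the other lists, 8 of 16 DNA replication genes were higher, as were 7 of 15 G1 regulators, 4 of 18 genes of cholesterol synthesis, 6 of 16 growth factor receptors and ligands, 10 of 23 glutamate and GABA receptors and 14 of 21 ion channels. Of the Notch, BMP, TGF-beta and Wnt signalling genes 16 of 19 were lower (median −0.30), and of the interferon and MHC class I genes 15 of 19 were (median −0.29). Of the complement and glial ageing genes 6 of 10 were lower, and 1 of 5 haemoglobin genes was tested. None of the genes in these lists was called in the 10-animal fit.

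The change over time was then compared with that in CKO cells, in a fit of 24 animals at 12 and 90 dpi. The test of genotype by time called 0 of 15735 genes in edgeR, with 1545 at an unadjusted p under 0.05, and DESeq2 called 109. The CKO change itself called 2 genes in edgeR, both higher, one of which was the OPC gene Neu4 (0.93, adjusted p = 0.0375, against 0.37 in wild type). The wild-type and CKO contrasts share no animals. Myelin genes had a median log2 difference of −0.68 in wild type and −0.08 in CKO cells. Cnp differed by −0.76 and −0.12 (unadjusted p of the interaction 0.0117, adjusted 0.327). Committed-stage genes had medians of −0.39 and 0.06, immature neural genes −0.52 and −0.11, and mitochondrial genes −0.96 and 0.28. Bcas1 differed by −0.42 in wild type and 0.41 in CKO cells, with an unadjusted p of 0.00181 and an adjusted p of 0.198 for the interaction. For Mycn the values were −1.07 and 0.42 (0.000252 and 0.142). Other genes had like values in both genotypes. Dpysl3, an immature neural gene, differed by −0.53 and −0.52 (0.848 and 0.991), and Etv5 by 0.64 and 0.57 (0.568 and 0.929). Proliferation genes had medians of −0.73 in wild type, with 10 of 14 lower, and −0.80 in CKO cells, with 14 of 14 lower. Mki67 differed by −1.36 and −1.10, and Cdk1 by 0.16 and −0.75. Clock and glucocorticoid genes had medians of 0.17 and 0.21, with Per2 at 1.00 and 0.82 and Per1 at 0.75 in each. Depth in the CKO groups overlapped, at 2409109 to 27808902 counts at 12 dpi and 4106565 to 30045174 counts at 90 dpi.

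**Figure D5:**
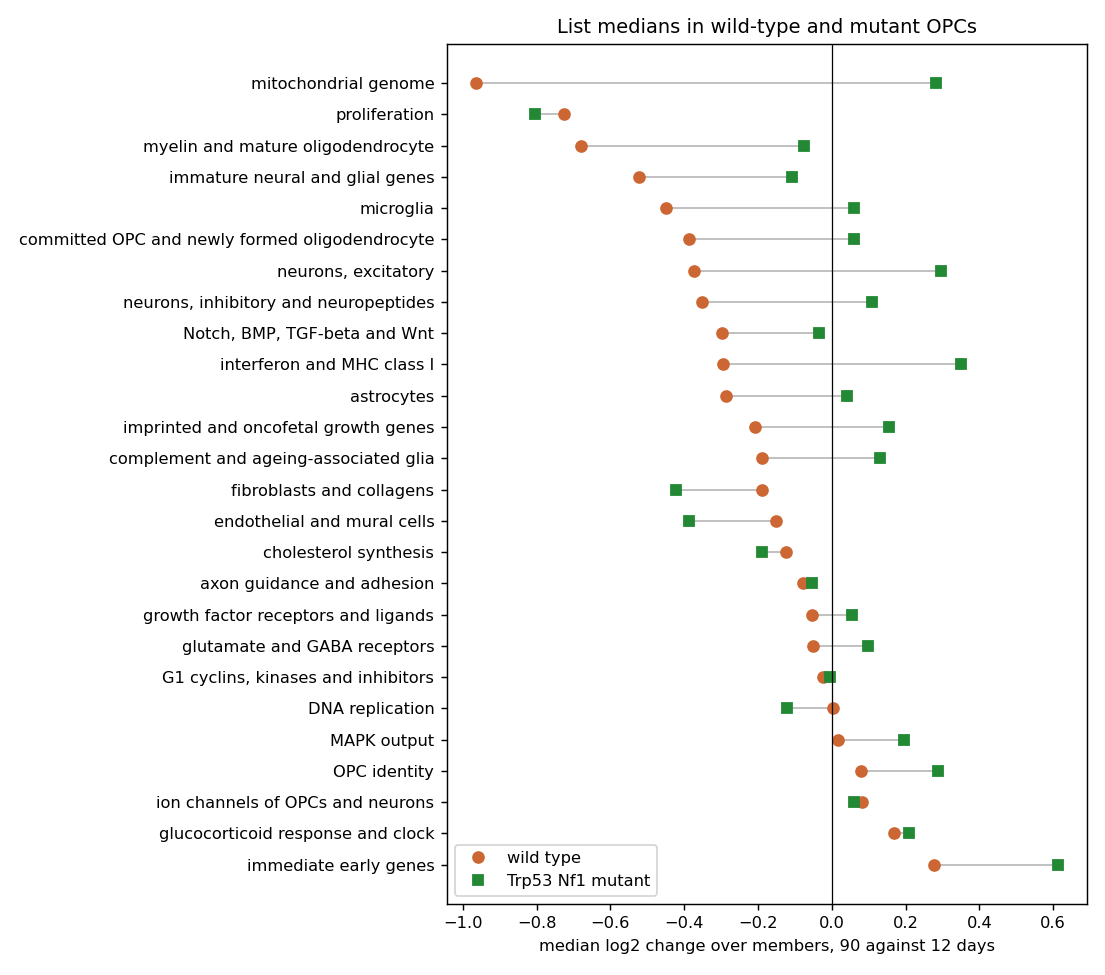
Median log2 difference between 90 and 12 dpi over the tested members of each list (horizontal axis), in wild-type animals (circles, 16-animal fit) and CKO animals (squares, 24-animal fit). The myelin median is −0.68 in wild type and −0.08 in CKO cells, whereas the proliferation medians are −0.73 and −0.80.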

How the data were processed

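Total RNA of laser-captured cells went through a linear, T7-based amplification, per the labels' protocols. The deposited values are expected counts per gene. RSEM, Bowtie2 and the build GRCm38 are named in the submitters' processing notes, and their versions are not given in the sources used here. The authors' table holds 34623 genes and 92 spike-in rows, which were left out. Expected counts were rounded after summing the libraries of an animal number. The wild-type fit took 16 animals into edgeR 4.0.16 (R 4.3.3), with a quasi-likelihood test, sex as a covariate and TMM scaling, after low genes were removed with filterByExpr at a count of 10 and a total of 15. The genotype by time test used 24 animals. P-values were adjusted by Benjamini-Hochberg over all genes tested, with a threshold of 0.05. Alternatives used DESeq2 1.42.0, limma 3.58.1, other animals, filters, scalings and libraries thinned to 2316668 counts. SEs are those implied by edgeR's F statistic.

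The members, lists and tests were chosen with earlier results of these data known. There were 26 lists with 432 genes, 2 of them not in the table. The lists of mitochondrial, ribosomal and oxidative phosphorylation genes, the sums over copies and the E-box search were added after seeing the data. Named genes are those called with and without animal F, filled to 12 per direction from protein-coding genes above the median level whose animals do not overlap (lowest p without animal F), the defining members and up to 4 lowest p of each list, and 5 genes of earlier results. With 6 genes from outside the rule, chosen after their values were seen, this gave 205 genes. Of these 114 are described, also a choice made after their values were seen, and 1 result is not reported here. Copies are transcripts of another gene with at least 95% identity over 50% of the shorter transcript. Transcript lengths are medians over coding transcripts of GENCODE M21. On counts simulated for the wild-type comparison over 13952 genes, edgeR's 16-animal fit recovered 43.9% of genes changed 2-fold and 85.4% of those changed 4-fold. The simulated 10-animal fit recovered 39.2% and 84.2%. False calls numbered 9 with 16 animals and 11 with 10. On the real counts the order was reversed, with 0 genes called with 16 animals and 295 with 10. The simulated rates therefore do not show what share of changes the real 16-animal fit could find. The precision of a value is limited by 1 count, which is 9.48 CPM in animal F.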

Additional observations from a re-analysis of the deposited data

Results flagged for a closer look

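Each result here has 1 animal whose gap to the nearest other animal of its group of 5 was above Dixon's 95% critical value for the share of the group's range. Chance flags about 1 in 20 groups. Of 232 groups tested, 27 held such an animal, and in 17 of them it was the shallow library animal F.

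In that library at 90 dpi, the low values were Olig2 at 47.4 CPM (70.4 to 78.6 in the other 4 animals), Sirt2 at 114 (155 to 170), Sox11 at 114 (195 to 223), Tef at 85.3 (144 to 165), Peg3 at 502 (685 to 743), Gad1 at 825 (986 to 1050) and Trp53 at 9.48 (24.6 to 28.9). Listed at 0 in it were Cx3cr1 (11.6 to 14.6 in the others), Fkbp5 (18.7 to 25.7) and Eny2 (21.0 to 27.3), where a count of 0 allows up to 28.4 CPM. Rps7 (31.6 to 41.7) and mt-Co2 (970 to 1160) were listed at 0 in it too. Summed with their near-identical copies, Rps7 was at 113.7 CPM and mt-Co2 at 1943 CPM in animal F, so that bound does not hold for them. The high values were Cldn11 at 171 CPM (42.8 to 72.0), Mycn at 66.3 (30.6 to 40.0), C1qa at 28.4 (3.10 to 7.74), Col1a2 at 28.4 (2.64 to 9.87) and mt-Atp6 at 1860 (404 to 794). With 9.48 CPM to a count, the values for C1qa and Col1a2 rest on 3 counts.

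At 12 dpi, animal A was high for Per2, at 33.5 CPM (16.7 to 21.3 in the others), and Eno1b, at 93.3 (0 to 1.04), and low for Col6a1, at 17.8 (30.8 to 34.2). Animal animal B was low for Gpr161, at 20.3 CPM (24.9 to 26.6), and had 4.30% of its counts from the mitochondrial genome (2.65 to 3.06% in the others). Animal animal C was high for the immediate early genes Fosl2, at 385 CPM (47.6 to 138), and Nr4a3, at 188 (12.8 to 56.2). Animal animal D was high for the neuropeptide Sst, at 34.6 CPM (1.14 to 8.503), and low for Aqp4, at 73.0 (106 to 118). At 90 dpi, animal J was low for Dcn, at 0.559 CPM (9.30 to 12.2). The causes were not tested.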

How the results depend on the processing

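The number of genes called between 90 and 12 dpi was 0 in the 16-animal edgeR fit. It stayed 0 in the fits of 30 non-tumour animals, without animal F, with a robust spread, with RLE size factors, with a mean of at least 10 CPM, without the sex covariate, in males only, and at 1 depth less animal F. It was 295 with the 10 compared animals alone and 466 when animal F was also left out, 1 with all 37 animals and 1 with these less animal F, 30 in DESeq2, 273 in limma voom with quality weights, 12 without a filter and 38 in females only. Chosen after seeing the data, voom and DESeq2 on the 10 animals called 601 and 773. Leaving out 1 animal at a time gave 0 to 1, the 1 being Gm9844 without animal D. Genotype by time called 0 genes, 109 in DESeq2 and 53 without a filter, and 0 without animal F, with all 37 animals, with RLE or without sex. Of 3056 pairs of a described gene and an alternative, 270 were called, all with the sign of the 16-animal fit, and 82, in 25 genes, turned sign, none of them called. Over all genes named by the rule, described or not, 155 of 5335 pairs in 47 of 201 tested genes turned sign, 291 were called, and 0 did both. In females only, the turned log2 values were Vcan −0.157, Neu4 −0.014, Dbp −0.333, P2ry12 0.042, Eno1b 0.000, Nf1 0.074, Itpr2 −0.035, Peg3 −0.117, Sgk1 −0.045, Npas4 0.105, Camk2a 0.166, Slc1a2 0.087, Dcn 0.071 and Col1a2 0.073. In males only they were Fos 0.139, Snap25 −0.016, Dusp6 0.081, Fkbp5 0.091, Npas4 0.000, Gad1 0.027 and Rgs5 −0.064. In voom they were Nf1 0.006, Cdk1 −0.535, Npas4 0.185 and Camk2a 0.033, and in voom on the 10 animals Dbp −0.015, Nf1 0.009, Cdk1 −0.574, Npas4 0.179 and Camk2a 0.029. With the 10 animals alone Npas4 was 0.078, and less animal F Npas4 was 0.106 and Gad1 0.003. With 30 animals Npas4 was 0.067 and Camk2a 0.040. With 37 animals Npas4 was 0.053, Camk2a 0.006 and Gad1 0.012, and less animal F Npas4 was 0.120, Camk2a 0.016, Gad1 0.042 and Fkbp5 0.013. Without the sex covariate Npas4 was 0.122, and at 1 depth Dbp was −0.185, Itpr2 −0.115 and Npas4 0.026. Leaving out 1 animal at a time gave ranges across 0 for Sox10 (−0.241 to 0.009), Vcan (−0.045 to 0.161), Dbp (−0.112 to 0.228), Fos (−0.753 to 0.089), Egr1 (−0.052 to 0.460), Nf1 (−0.056 to 0.050), Itpr2 (−0.023 to 0.126), Fkbp5 (−0.181 to 0.051), Sgk1 (−0.032 to 0.173), Npas4 (−0.418 to 0.312), Camk2a (−0.089 to 0.078), Gad1 (−0.087 to 0.004), Flt1 (−0.281 to 0.063), Rgs5 (−0.068 to 0.199), Dcn (−0.590 to 0.190), Col1a2 (−0.514 to 0.082) and Tuba1c (−0.064 to 0.368). The cause was not tested. No paired analysis was possible because the wild-type groups share no animal numbers. Depth limits animal F most: it holds under 3 counts for several named genes.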
